A study of Aspergillus nidulans with 6 samples.

Results

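*hapX* (AN8251) and *sidA* (AN5823) of *Aspergillus nidulans* are the regulator of iron metabolism and the gene for the first enzyme of siderophore synthesis, and both carry a peak in the ChIP-Seq experiment on the KEOPS subunit KaeA. They were chosen by their roles in iron metabolism, as 2 of the 312 genes that overlap at least 1 of the 468 peaks of the deposited list. Their rows in that list are the peak on chromosome II from 1274432 to 1276389 and the peak on chromosome I from 2139171 to 2140996.

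Iron is scarce in soluble form, and *A. nidulans* takes it up with siderophores, small hydroxamate chelators that are secreted to capture ferric iron or kept inside the cell to store it. SidA, the L-ornithine N5-monooxygenase, hydroxylates ornithine in the step with which the synthesis of these chelators begins. HapX is a bZIP protein that works together with the CCAAT-binding complex of HapB, HapC and HapE; during iron starvation it represses genes of iron-consuming pathways, while the GATA factor SreA represses iron uptake when iron is plentiful. KaeA belongs to KEOPS, a complex known for its part in the t6A modification of tRNA.

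ChIP-Seq libraries of 3 biological replicates of DNA immunoprecipitated with an anti-HA antibody (IP) were compared with 3 of input DNA taken before immunoprecipitation. All 6 libraries came from mycelium of the strain in which *kaeA* carries an HA epitope tag, made with the marker labelled A.f. pyrG, and all mycelia had been crosslinked for 15 min in 1% formaldehyde. Its other alleles are pyrG89, argB2 and pabaB22, the *nkuA* deletion (nkuA delta::argB) and an allele of *riboB*. The labels count the number of this allele up from riboB2 in the first sample to riboB7 in the last, whereas the description of the strain in the study gives riboB2. As no untagged strain entered the comparison, each value below sets the IP of the tagged strain against its own input. No group was grown with another iron supply, so no value bears on a response to iron.

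The counts on peaks summed to between 252925 and 377238 per IP library and to between 162458 and 278412 per input library, and the lowest count at any peak in any library was 59. Counts were scaled with TMM factors, and a normalized count is a count brought to the mean effective library size. Peaks were called with the quasi-likelihood test of edgeR at a Benjamini-Hochberg adjusted p under 0.05 over all 468 peaks. By this rule 76 peaks (16.2%) were called, of which 52 (11.1%) were higher and 24 lower in IP, and the unadjusted p was under 0.05 at 121. With library size alone in place of TMM factors, the calls were 38 higher and 60 lower, and the log2 fold change of the median peak was -0.13, against -0.02 with TMM factors. In 77 peaks (16.5%), all 3 IP libraries had higher normalized counts than all 3 input libraries. MACS2 had selected these peaks for enrichment in the same libraries, so the test repeats part of the selection, and a log2 fold change gives a peak's difference relative to the typical peak of the list, not to the rest of the genome. IP replicate 2 stood apart from the other IP libraries. Its counts differed from theirs with a chi-square per degree of freedom of 9.82 and 11.04, against 4.28 between IP replicates 1 and 3 and 1.96 to 2.15 between input libraries, and results are therefore also given without it. It was also the IP library nearest to input, with 9.54 to 13.7 against the input libraries. IP replicates 1 and 3 had 17.2 to 27.7 against them. Fits without IP replicate 2 thus leave out the IP library most like input.

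The *hapX* peak was 1958 bp long and covered the whole of the 1428-bp RefSeq gene, which lies on chromosome II from 1274737 to 1276164 (assembly ASM1142v1). It began 305 bp before the lower-coordinate end of the gene and ended 225 bp past the other end, so that 72.9% of the peak was gene. Its summit, the position of the highest pileup, was at 1274797, 60 bp inside the lower end. At *sidA*, the 1826-bp peak covered 97.1% of the 1774-bp gene, which lies on chromosome I from 2139274 to 2141047. It began 103 bp before the gene, stopped 51 bp short of its far end and had its summit at 2139517, 243 bp inside the lower end. Both summits were thus in the lower-coordinate part of the gene, at 4.20% of the length of *hapX* and 13.7% of that of *sidA*. The strand of the genes was not used here, so which end holds the start of transcription is not stated.

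**Figure D1:**
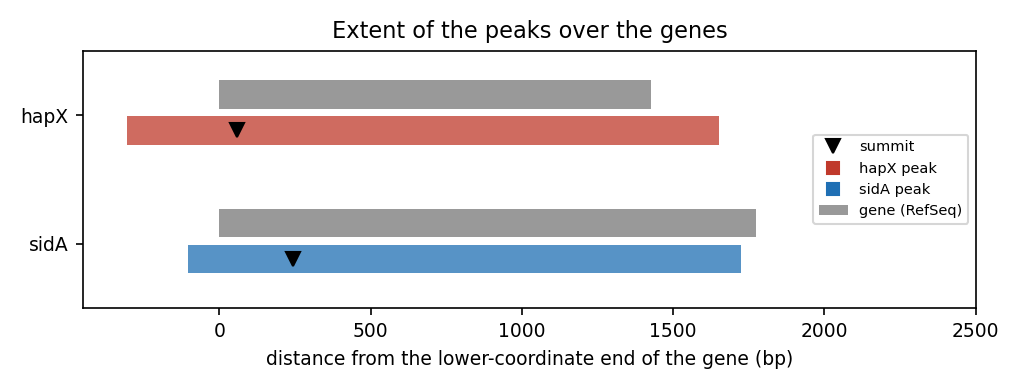
Extent of the *hapX* and *sidA* peaks (coloured bars) over the RefSeq genes (grey bars), in bp from the lower-coordinate end of each gene; the triangles mark the summits. The *hapX* peak reaches past both ends of the gene, the *sidA* peak past the lower end only, and the summits lie at 60 bp and 243 bp.

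The deposited annotation of location puts these peaks in different classes. The *sidA* peak is classed as 5′ UTR, like 51 of the 468 peaks, with a median log2 fold change of 0.37 and 29 peaks called higher in that class. The *hapX* peak is classed as exon, with a text that names exon 1 of 10 and NA as the transcript. The same text stands at 86 peaks, 5 of them called higher, with a median log2 fold change of -0.03. These 86 peaks had a median length of 376 bp, against which the 1958 bp of *hapX* are long, while the 5′ UTR class had a median of 1384 bp. In that annotation the gene named as nearest starts 106238 bp from the *hapX* peak and 12221 bp from the *sidA* peak, and at 399 of the 468 peaks the distance exceeds 10 kb, so the genes were assigned here by overlap with RefSeq genes instead.

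Neither member had a peak at a neighbouring gene. The genes next to *hapX*, AN11598 at a distance of 835 bp and AN11064 at 1944 bp, overlapped no peak, and the next peaks were 156821 bp before it, at AN8202 with a log2 fold change of -0.14, and 54589 bp after it, at AN8269 with 0.59. For *sidA*, the neighbouring genes AN5824 (2539 bp away) and AN5822 (5571 bp away) likewise had no peak. The next peaks were 35411 bp before, at AN5834 with a log2 fold change of 0.01, and 69299 bp after, in a region with no RefSeq gene, with -0.07.

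The translated sequence of the peaks had been searched for Pfam domains by the authors, with a hit in 186 of the 468 peaks. A 480-residue stretch of the *hapX* peak held the Hap4 minimal binding motif (PF10297) at residues 44 to 60, the short element through which factors of this kind contact the CCAAT-binding complex. At *sidA*, 2 translated stretches matched PF13434, annotated as an NADPH-requiring lysine monooxygenase, a family that also takes in ornithine monooxygenases, at residues 6 to 124 of a 216-residue stretch and at residues 50 to 302 of a 302-residue stretch. Each of these domains occurred in 1 peak of the list, so the sequence under the peaks carries the identity of the genes. The GO terms attached to the *hapX* peak were DNA binding, nucleus and regulation of DNA-templated transcription.

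The *hapX* peak was slightly higher in IP and was not called. It had 1439, 917 and 1200 raw counts in IP replicates 1, 2 and 3, against 861, 1044 and 635 in input replicates 1, 2 and 3. After scaling these were 1040, 1003 and 1175 normalized counts in IP and 919, 946 and 992 in input. All 3 IP libraries thus lay above all 3 input libraries, but by a narrow margin, since IP replicate 2 exceeded input replicate 3 by only 10.6 normalized counts, or 1.07% of the input value. The means were 1073 ± 90.9 in IP and 952 ± 37.0 in input (SD, n = 3 each). The log2 fold change was 0.17 (standard error 0.08, 95% interval -0.0039 to 0.35), with an unadjusted p of 0.0547 and a Benjamini-Hochberg adjusted p of 0.200 in edgeR. Without IP replicate 2 it was 0.21 and was called (adjusted p = 0.0161, same edgeR test), whereas without IP replicate 3 it was 0.10 (adjusted p = 0.619), so the call rested on single libraries.

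The *sidA* peak was higher in IP and was called. Its raw counts were 2283, 1401 and 2020 in IP replicates 1, 2 and 3, against 1167, 1371 and 871 in the input replicates. The normalized counts were 1649, 1532 and 1979 in IP and 1246, 1242 and 1361 in input. The groups did not overlap, and the lowest IP library exceeded the highest input library by 171 normalized counts, or 12.6% of the input value. The means were 1720 ± 231 in IP and 1283 ± 67.7 in input (SD, n = 3 each), a 1.34-fold difference. The log2 fold change of 0.42 (standard error 0.09, 95% interval 0.23 to 0.62) had an adjusted p of 0.00281 in edgeR. It was 0.50 without IP replicate 2 (adjusted p = 1.28e-08) and stayed called in all 6 fits that left out a single library, with log2 fold changes of 0.31 to 0.50 and adjusted p-values of at most 0.0318 (same edgeR test).

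**Figure D2:**
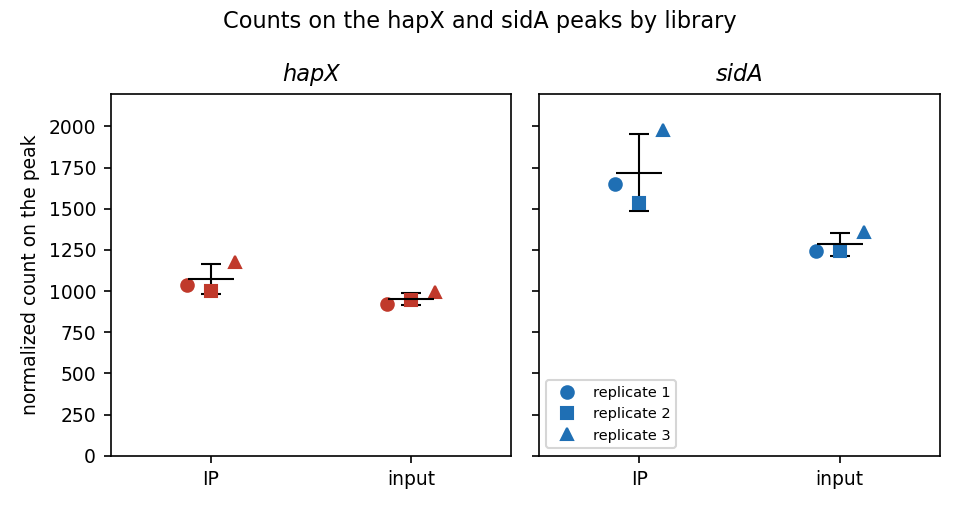
Normalized counts on the *hapX* and *sidA* peaks in each of the 3 IP and 3 input libraries; horizontal marks are group means and bars are SD (n = 3). With TMM factors, the IP libraries lie above the input libraries at both genes, by 10.6 counts at *hapX* and by 171 counts at *sidA* for the closest pair.

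The order of the IP libraries was the same at both genes. IP replicate 3 was the highest and IP replicate 2 the lowest of the IP libraries at *hapX* and at *sidA*, and input replicate 3 was the highest of the input libraries, while input replicates 1 and 2 changed places between the genes. IP replicate 2 was the lowest IP library at 27 of the 52 peaks called higher and at 175 of all 468 peaks. IP replicate 3 was the highest at 14 of the 52 and at 133 of the 468, and IP replicate 1 at 30 of the 52 and at 152 of the 468. The spread between IP libraries was wider than that between input libraries at both genes, with a coefficient of variation of 8.47% in IP and 3.88% in input for *hapX*, and 13.5% in IP and 5.27% in input for *sidA*.

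The direction of both differences depended on the peaks to which the libraries were scaled. With factors from the 60 peaks that MACS2 had enriched at least 2-fold, the median over the whole list was -0.49, and the values were -0.29 for *hapX* (adjusted p = 0.00528, edgeR) and -0.04 for *sidA* (adjusted p = 0.671, edgeR). With the libraries rescaled so that the median matched the MACS2 enrichment, they were 0.81 for *hapX* and 1.06 for *sidA*, and both were called higher. The rescaling added a chosen log2 shift of 0.64, and *sidA*, with a fold enrichment of 2.32, was itself among the 60 peaks. The signs under these settings thus follow from the scaling chosen and test nothing. A change of scaling moves all peaks by nearly the same amount, so the distance to the median of all peaks hardly varies with it by construction. With TMM factors this distance was 0.19 for *hapX* and 0.45 for *sidA* on the log2 scale, and with a trend on peak length removed, which is no common shift, it was -0.12 for *hapX* and 0.15 for *sidA*. Without scaling of any kind, the raw counts summed over the 3 libraries were 3556 in IP and 2540 in input for *hapX* (a ratio of 1.40), and 5704 in IP and 3409 in input for *sidA* (a ratio of 1.67).

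**Figure D3:**
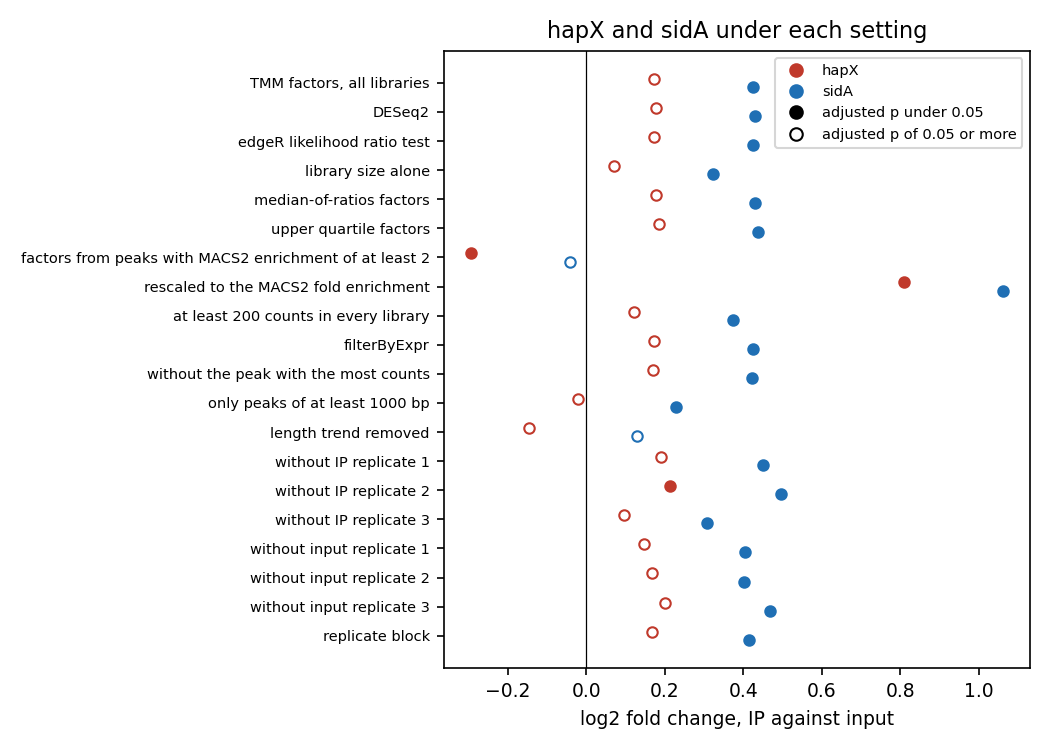
Log2 fold change of IP against input for *hapX* (red) and *sidA* (blue) under each setting of the analysis, one row per setting; filled circles have an adjusted p under 0.05. The points of the 2 genes move together when the scaling changes, from -0.29 and -0.04 to 0.81 and 1.06, and *sidA* lies above *hapX* in every row.

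A ratio of 2 counts from the same library does not depend on scaling, so the members were also compared with each other in this way. The ratio of *hapX* to *sidA* counts was 0.630, 0.655 and 0.594 in IP replicates 1, 2 and 3, against 0.738, 0.761 and 0.729 in the input replicates. All IP ratios were thus below all input ratios. The difference was -0.25 on the log2 scale (standard error 0.04), with p = 0.1 in a two-sided exact permutation test, the smallest value that 3 libraries against 3 allow, and 0.15 after Benjamini-Hochberg adjustment over the 3 ratios compared. This test cannot go below 0.1 with 3 libraries a group, and the difference was -0.28 to -0.21 when single libraries were left out.

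The gene *cpcA* (AN3675), whose bZIP product controls amino acid synthesis, served as the partner for 2 further ratios. Its normalized counts were 1539, 1386 and 1501 in IP, against 1160, 1157 and 1083 in input, without overlap. The *hapX* to *cpcA* ratio was 0.676, 0.724 and 0.783 in IP and 0.793, 0.818 and 0.916 in input. Here too all IP ratios were below the input ratios, with a log2 difference of -0.21 (standard error 0.09, exact permutation p = 0.1, adjusted 0.15), which was -0.27 to -0.15 when single libraries were left out. For *sidA* to *cpcA*, the ratios of 1.07, 1.11 and 1.32 in IP overlapped those of 1.07, 1.07 and 1.26 in input. This log2 difference of 0.04 (standard error 0.12) had an exact permutation p of 0.7 (adjusted 0.7) and took either sign when single libraries were left out (-0.06 to 0.11).

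The values of the peak caller, taken from the merged libraries and therefore without replicates, put the members in the same order. *sidA* had a pileup of 364 at the summit (rank 60 of 468), a fold enrichment over the local background of 2.32 (rank 43) and a −log10 q of 41.9 (rank 39). For *hapX* the pileup was 186 (rank 243), the fold enrichment 1.79 (rank 98) and the −log10 q 10.3 (rank 137). The height of the *hapX* peak was thus near the median of 189, whereas its fold enrichment was above the median of 1.53. Across all 468 peaks, the log2 fold change followed the MACS2 fold enrichment (Spearman's rho 0.711, a description across peaks selected on the same libraries), and both genes lay within this band, at ranks 83 (*hapX*) and 33 (*sidA*) by log2 fold change.

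**Figure D4:**
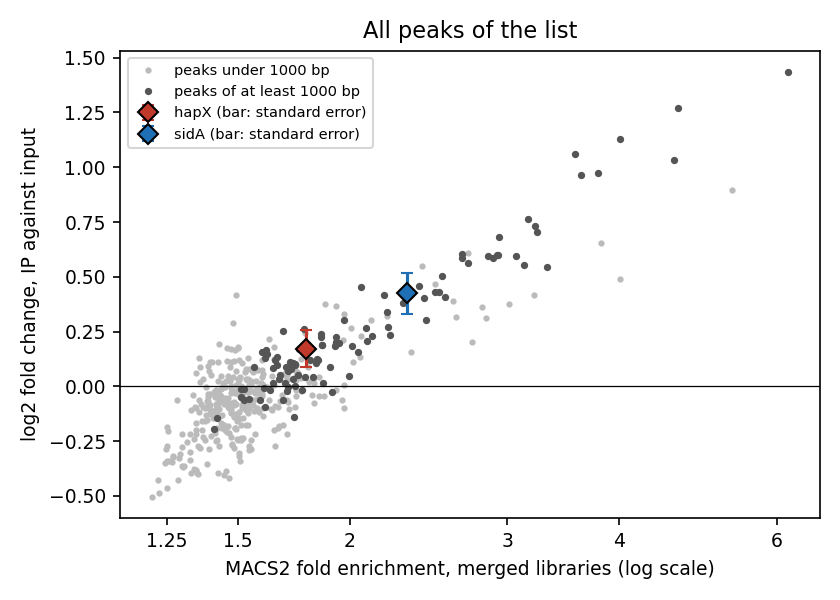
Log2 fold change of IP against input from the replicate libraries (vertical axis) against the MACS2 fold enrichment of the merged libraries (horizontal axis, log scale) for all 468 peaks; dark points are peaks of at least 1000 bp, and bars on the 2 marked genes are standard errors. *hapX* lies at 1.79 and 0.17 and *sidA* at 2.32 and 0.42, both inside the cloud of long peaks.

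Both peaks were among the longest of the list, at ranks 29 (*hapX*) and 34 (*sidA*) against a median length of 397 bp. Of the 102 peaks of at least 1000 bp, 36 (35.3%) were called higher and 0 lower, with a median log2 fold change of 0.17. *hapX* was in the middle of this class, at rank 51 of 102, and *sidA* was in its upper part, at rank 27. When only the long peaks were scaled and tested, the log2 fold change was -0.02 for *hapX* (adjusted p = 0.787, edgeR) and 0.23 for *sidA* (adjusted p = 0.0371, edgeR), and with a trend on peak length removed the values were -0.15 for *hapX* and 0.13 for *sidA*, and neither was called. Lengths were set by peak calling on the same libraries, and the part of length in these differences was not tested further.

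Per length, the *hapX* region was thinly covered. Its normalized counts per kb were 531, 512 and 600 in IP and 470, 483 and 507 in input, with means of 548 ± 46.4 in IP and 486 ± 18.9 in input (SD, n = 3 each). The input level was rank 466 of 468 from the top, and the IP level rank 434. These ranks include peaks of all lengths. Median levels were 656 in input and 668 in IP over all peaks. Over peaks of at least 1000 bp they were lower, at 569 in input and 642 in IP. *sidA* had 903, 839 and 1084 normalized counts per kb in IP, against 682, 680 and 745 in input. Its means, 942 ± 127 in IP and 703 ± 37.1 in input (SD, n = 3 each), ranked 107 in IP and 194 in input. At *sidA* more reads were thus found per kb than at *hapX* in input as well as in IP, which the MACS2 fold enrichment and the log2 fold change take into account and the pileup does not.

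Other genes were taken from a list of 26 entries, called the iron list here. Entries are annotated with siderophores, iron or metal ion homeostasis in the supplementary gene tables of the study. Further entries are named in the reference as *sreA* or as CCAAT-binding or siderophore genes. The list is thus wider than iron metabolism, and AN6249 and AN2919 are described below with other roles. Of the 26 entries, 22 were matched to RefSeq, and 9 of the 22 (40.9%) overlapped a peak, against 312 of all 10516 genes (2.97%). For this list, 5 of the entries were taken from the study's table of genes at KaeA peaks. The study kept regions with a corrected p under 0.05 in its own edgeR comparison. It counts *hapX* among them, although *hapX* was not called here. Of these 5 entries, 4 had a peak, which is no independent evidence. Of the other 17 genes, 5 (29.4%) overlapped a peak, and no peak at these 5 was called. These 17 were also listed with earlier results of the data known, so they are no independent check either. Of the 9 genes with a peak, only *sidA* and AN6249 had a peak called higher, 0 genes had a peak called lower, and 7 had peaks that were not called. Over the whole list, 52 of the 468 peaks (11.1%) were called higher. Without IP replicate 2, 5 genes had a peak called higher, since *hapX*, *sidI* and AN2919 then passed the threshold too. In that fit 72 of all 468 peaks were called higher. With factors from the enriched peaks 7 genes had a peak called lower, as were 405 of the 468 peaks. After the rescaling to the MACS2 enrichment all 9 had a peak called higher, as were 461 of the 468. With the trend on peak length removed, *sidA* lost its call, AN6249 was the 1 gene with a peak called higher, and the third *sidD* peak was called lower (-0.33, adjusted p = 0.00737, edgeR). The 11 peaks at these 9 genes had log2 fold changes of -0.15 to 0.57 with a median of 0.12, against -0.02 over all peaks, and 7 of the 11 were at least 1000 bp long. The 102 peaks of at least 1000 bp had a higher median, 0.17, and 36 of them (35.3%) were called higher.

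Among the genes of siderophore synthesis, *sidI* encodes the mevalonyl-CoA ligase and *sidD* the non-ribosomal peptide synthetase of the secreted siderophore fusarinine C, roles known from *Aspergillus fumigatus*. The 2126-bp peak at *sidI* (AN0609) covered 99.4% of the gene and had 1391, 1209 and 1341 normalized counts in IP, against 1137, 1179 and 1152 in input. As at *hapX*, the groups did not overlap, and the log2 fold change of 0.19 (standard error 0.08) was not called (adjusted p = 0.147, edgeR). Without IP replicate 2 it was 0.24 and was called (adjusted p = 0.00459, edgeR). It was not called in the other 5 of the 6 fits that left out a single library, with 0.17 without IP replicate 3 (adjusted p = 0.314, edgeR). At *sidD* (AN6236), 3 peaks of 726, 244 and 2299 bp had log2 fold changes of -0.11, -0.15 and 0.04, and IP and input overlapped at each of them. No peak overlapped *sidC*, the gene of the peptide synthetase of intracellular siderophores, *sidH*, or AN6234 (*sidF*), which lay 2810, 2332 and 3333 bp from the nearest peak.

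Of the siderophore transporters, *mirB* (AN8540) had a 2105-bp peak over 95.5% of the gene. Its normalized counts were 1204, 1143 and 1173 in IP and 1111, 1076 and 1049 in input, so that all IP libraries were above all input libraries. The log2 fold change of 0.12 (standard error 0.08) was not called (adjusted p = 0.384, edgeR). The 324-bp peak at *sit1* (AN5378) and the 531-bp peak at AN8365, which the study describes as a probable transporter, had log2 fold changes of -0.06 and 0.09, and their groups overlapped. *sit2* (AN3763) and AN7800 (*mirA*) had no peak.

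The regulators of the list differed in the same way. *hapB* and *hapE*, which encode subunits of the CCAAT-binding complex that HapX works with, and *sreA* overlapped no peak. For *hapE* the nearest peak was 879 bp away, for *sreA* 19373 bp and for *hapB* 159937 bp, which was the farthest of the 13 matched genes without a peak (median 19373 bp). The zinc finger gene AN2919, which the study calls *sltA* and links to cation homeostasis, had a 2436-bp peak with 1504, 1426 and 1838 normalized counts in IP, against 1274, 1368 and 1524 in input. The groups overlapped, and the log2 fold change of 0.20 (standard error 0.10) was not called (adjusted p = 0.207, edgeR) but was 0.27 and called without IP replicate 2 (adjusted p = 0.00273, edgeR). It was not called in 5 of the 6 fits that left out a single library, with 0.08 without IP replicate 3 (adjusted p = 0.767, edgeR). AN6249, which the study calls *rcnA*, a putative calcineurin-binding protein, had the highest log2 fold change of the list at 0.57 (standard error 0.09, adjusted p = 0.000147, edgeR). Its normalized counts were 1369, 1175 and 1436 in IP and 820, 956 and 916 in input, without overlap.

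**Figure D5:**
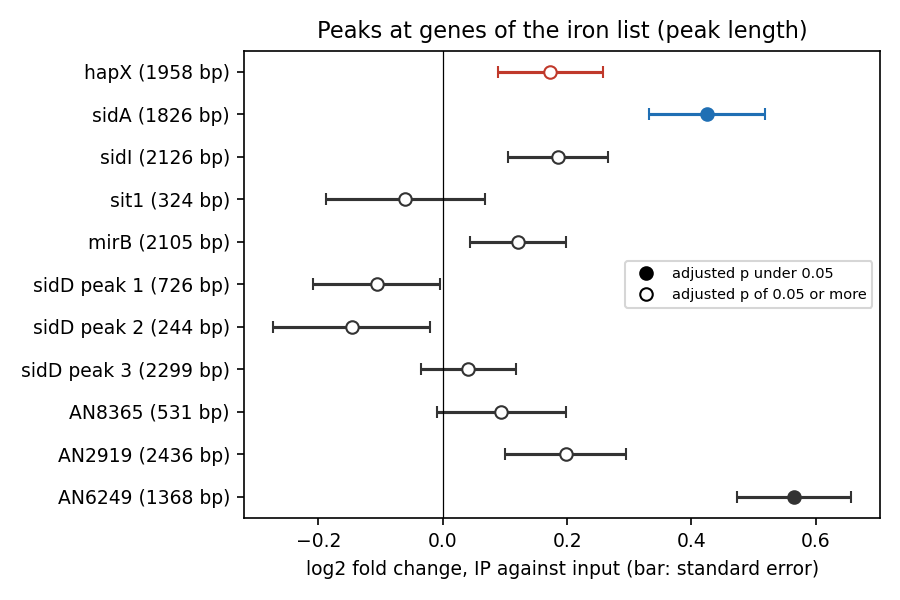
Log2 fold change of IP against input at the 11 peaks that overlap genes of the iron list, one row per peak with its length; bars are standard errors, and filled circles have an adjusted p under 0.05. Only *sidA* (0.42) and AN6249 (0.57) are filled, and *hapX* lies beside *sidI* and AN2919 at 0.17 to 0.20.

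Ornithine, the substrate of SidA, is also consumed by ornithine aminotransferase and is formed by arginase. Neither of these genes, *otaA* (AN1810) and *agaA* (AN2901), overlapped a peak, and the nearest peaks were 96345 bp from *otaA* and 54122 bp from *agaA*.

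The peaks whose pattern over the 6 libraries was most like that of each member were found by the Euclidean distance between log2 normalized counts, each centred on its own mean. Nearest to *hapX* were the peaks at AN1049 (distance 0.099), AN4218 (0.12), AN1677 (0.12), AN5169 (0.12) and *rgsA* (AN5755, 0.13, in a peak shared with AN10725). None of these 5 peaks was called, and their log2 fold changes were between 0.11 and 0.25. Nearest to *sidA* were the peaks at AN0186 (0.18) and the histone H4.1 gene AN0734 (0.24), a peak on chromosome III that overlaps no gene (0.25), and the peaks at AN1677 (0.25) and AN8907 (0.25). Their log2 fold changes were 0.25 to 0.58. The peaks at AN0734, on chromosome III and at AN8907 were called, and those at AN0186 and AN1677 were not. Over the whole list, 76 of the 468 peaks (16.2%) were called. The distance is taken over the same 6 libraries as the fold change. A fold change and call like those of the member thus follow from the choice and are no result about these peaks. *hapX* and *sidA* were 0.32 apart, against a median over all other peaks of 0.45 from *hapX* and 0.67 from *sidA*, and AN1677 was among the 5 nearest to both. In order of distance, however, *sidA* was only number 108 from *hapX*, and *hapX* was number 19 from *sidA*. The peak at *cpcA*, which is not on the iron list, was number 13 from *sidA* (0.30) and number 123 from *hapX* (0.34).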

How the data were processed

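ChIP-Seq was performed on 3 IP and 3 input libraries; groups and replicate numbers were taken from the sample labels. The authors trimmed reads with Trimmomatic, mapped them with BWA to ASM1142v1, removed optical duplicates with Picard, merged the replicates and called peaks with MACS2 (versions not given in the sources used here). The deposited values used were unnormalized counts per peak and library, and, from the merged libraries, the pileup signal, the fold enrichment ratio and the −log10 q-value. The deposited location classes and domain positions, which are other annotation, were also read; a table of the authors' edgeR comparison (fold changes and p-values) was not used.

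Counts were tested with edgeR 4.0.16 (R 4.3.3, limma 3.58.1; glmQLFit, TMM, no block) over all 468 peaks, adjusted by Benjamini-Hochberg and called under 0.05. The standard error is the absolute log2 fold change divided by the square root of F. Ratios of raw counts were compared with exact permutation tests (scipy 1.17.1), two-sided. Genes were assigned where they overlapped a peak by 1 bp or more, from the RefSeq genes of ASM1142v1. DESeq2 1.42.0, other scalings, filters of 200 counts or 1000 bp, a 2-fold minimum, a length trend, single libraries left out and a replicate block were alternatives. The procedure was also run on counts simulated from the fitted model itself, without selection of peaks. That run checks the code and cannot test whether the model suits these data. The count totals on peaks, 162458 to 377238 per library, are the only depth used here; totals of mapped reads were not used. No 2 libraries were copies (chi-square per degree of freedom 1.96 to 27.7).

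The members and the lists were chosen with earlier results of these data known. Named are the members, the genes next to them, *cpcA*, genes of the iron list that overlap a peak, and the 5 nearest patterns of each member; the listed genes without a peak and those at the next peaks were named after their values were seen.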

Additional observations from a re-analysis of the deposited data

How the results depend on the processing

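The count of 76 called peaks was 417 (12 higher, 405 lower) with factors from peaks of at least 2-fold MACS2 enrichment, 461 after rescaling to that enrichment, 45 among peaks of at least 1000 bp, 5 with a 2-fold minimum in addition, and 47 to 132 when single libraries were left out (47 without IP replicate 1, 49 without input replicate 1, 132 without IP replicate 2). The genes of the iron list with a called peak, 2 in all libraries, were 7 (all lower), 9 (all higher) and 0 under the factors, the rescaling and the 2-fold minimum, 2 (1 higher, 1 lower) with the length trend removed, and 2 to 5 with single libraries left out (5 without IP replicate 2).

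The log2 fold change of *hapX* was -0.29 with the enriched-peak factors, 0.81 after rescaling, -0.022 among long peaks and -0.15 with the length trend removed, and 0.10 to 0.21 with single libraries left out. That of *sidA* was -0.041 with the enriched-peak factors and 0.13 without the length trend (adjusted p = 0.498, edgeR). Among the other named peaks, the enriched-peak factors gave -0.28 for *sidI*, -0.35 for *mirB*, -0.42 for the third *sidD* peak, -0.38 for AN8365, -0.27 for AN2919 and -0.088 for *cpcA*, all opposite in sign to the values with TMM. The rescaling turned *sit1* (0.58) and the first and second *sidD* peaks (0.53 and 0.49). Among long peaks, *sidI* (-0.0096), *mirB* (-0.074) and the third *sidD* peak (-0.15) fell below 0, as they did without the length trend (-0.16, -0.22 and -0.33), where AN2919 was -0.19. Library size alone turned the third *sidD* peak (-0.063) and AN8365 (-0.0096), a minimum of 200 counts the third *sidD* peak (-0.0098), and leaving out IP replicate 1 *sit1* (0.043, with a range of -0.17 to 0.043 over the libraries left out). The cause of these changes was not tested.

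DESeq2, the likelihood ratio test of edgeR, the remaining scalings and the remaining filters changed no call or direction at *hapX* and *sidA*, although library size alone gave 0.07 for *hapX*. Libraries with the same number did not deviate together (correlations of -0.11, -0.05 and 0.03). With 3 libraries a group these correlations cannot decide whether the numbers pair IP with input, so a fit with a block was also run. With a replicate block, 83 peaks were called, *hapX* was 0.17 (adjusted p = 0.267, edgeR) and *sidA* 0.42 (adjusted p = 0.000175, edgeR). The ratios of *hapX* to *sidA*, *hapX* to *cpcA* and *sidA* to *cpcA* kept their log2 differences of -0.25, -0.21 and 0.04, which a block cannot change in this balanced layout. Their exact permutation p with the block was 0.25, 0.25 and 0.5. With 3 pairs this two-sided test cannot go below 0.25. The interval of the *hapX* log2 fold change reaches 0.35 and includes 0. Whether depth or the spread between libraries sets its width was not tested.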
